A study of Rattus norvegicus with 6 samples.

Results

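The Notch pathway genes described here were 10 genes picked by name, namely the receptors Notch1, Notch2, Notch3 and Notch4, the ligands Jag1, Jag2, Dll1 and Dll4, and the targets Hes1 and Hey1. They were 10 of 21655 gene names in the table of linear RNAs and carried 55 of its 70376 transcripts. RNA was measured in lung tissue of Sprague-Dawley rats, which were 7 weeks old at the start. The 3 control rats received saline, and the 3 pulmonary fibrosis (PF) model rats received bleomycin into the trachea at a dose of 7 mg/kg. Lungs were taken on day 28, and each rat gave 1 library of total RNA depleted of ribosomal RNA. Bleomycin is a chemotherapy drug that injures the lung lining and is followed by scarring, so the model is a chemical injury, and each library mixes all cell types of the lung. The samples are called control 1 to 3 and model 1 to 3, and no pairing by these numbers is stated in the sources used here.

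Notch receptors are membrane proteins that are switched on by Jagged or Delta-like ligands carried by a neighbouring cell. ADAM proteases and then gamma-secretase cut the bound receptor, and the released intracellular domain joins the DNA-binding protein RBPJ and Mastermind coactivators to switch on genes such as the Hes and Hey repressors. In the lung the pathway is known for the choice between secretory and ciliated fate in the airway lining, for arteries and their smooth muscle, and for work on fibroblasts in scarring.

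The values are FPKM, fragment counts scaled by transcript length and by library depth, which were summed over all transcripts that carry a gene's name. Coverage corresponded to between 35778631 and 41112682 reads of 150 bases per library. The mean correlation of log2 values was 0.940 between samples of the same group and 0.941 between samples of different groups. Model 3 stood slightly apart, with a median correlation to the others of 0.935, and it held more of several heart muscle RNAs and of a mucin RNA. The heart muscle myosin Myh6 had an FPKM of 5.11 in model 3 and at most 0.0339 elsewhere, and the airway mucin Muc5b had 22.2 in model 3 and at most 3.68 elsewhere. Other heart muscle markers highest in model 3 were Tnnt2, Myl7, Ryr2 and Actc1, but Actc1 was at 13.8 FPKM there and at 5.18 to 9.78 elsewhere. Nppa was not highest in model 3. Of the lung cell markers, Sftpc of alveolar type II cells lay between 2410 and 4146 FPKM and Cdh5 of endothelial cells between 57.3 and 73.9 FPKM. The fibrillar collagen Col3a1 was at 174, 178 and 154 FPKM in control and 189, 204 and 233 FPKM in model samples, and its log2 fold change was 0.30 with an adjusted p of 0.933 from limma. It was the only one of 8 fibroblast and matrix markers with an unadjusted p of at most 0.05 or without overlap. Of all genes tested, 4.91% had such a p and 10.7% had no overlap. Of the 8 markers, 5 were higher and 3 lower in model samples. Their summed FPKM, to which Col3a1 gave the most, was 413 to 477 in control and 488 to 574 in model samples. In bulk tissue, fewer cells of a type and less RNA per cell cannot be told apart.

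The promoter of Hes1 is shown because Hes1 is the textbook direct target of the pathway and was the member whose level varied most between the rats, with a coefficient of variation of 29.6% over the 6 samples. Windows of 300 bases, from 250 bases before to 50 bases after the start of the gene, were taken from RefSeq (build GRCr8) and matched 8 of the 10 genes with 9 windows. Dll4 and Hey1 had no window. RBPJ is known to bind the motifs GTGGGAA and GTGTGAA, and both were searched on both strands. A stretch of 30 bases on the minus strand at chr11:84213140-84213169, between 124 and 95 bases before the start of Hes1, held both, in opposite orientation, with the motifs in capitals:
Hes1: GTGGGAAagaaagtttgggaagtTTCACAC
Of all 33469 windows, 6.29% held GTGGGAA, 3.48% held GTGTGAA and 0.191% held both. Notch4 held GTGTGAA in reverse 53 bases before its start, and Dll1 held GTGGGAA in reverse 185 bases before its start. The windows of Notch1, Notch2, Notch3, Jag1 and Jag2 held neither. A match describes the letters in the window and not binding in these lungs. Coordinates below are those of the files, whose build is not given in the sources used here.

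No member passed the threshold used here between PF model and control lungs. The study's cut-offs were p up to 0.05 and a change of 1 log2 unit or more, and it also used FDR and q-values. The threshold here borrowed these cut-offs, as an unadjusted p of at most 0.05 with an absolute log2 ratio of group means of at least 1. The p-values came from limma, so the calls are not those of the study. The threshold was met by 0 of 10 members, against a background of 1.52% of the 19645 genes tested. The count at an unadjusted p of at most 0.05 was also 0, where the background was 4.91%, and the count at an adjusted p below 0.05 was 0, where the background was 0.0102%, or 2 genes. Adjusted p-values of the members from limma lay between 0.933 and 0.971. The group means differed by between -7.53% for Hes1 and 19.1% for Dll1. The 95% intervals of the log2 fold changes all lay within 1 unit of 0, and the bound farthest from 0 was that of Hes1, at -0.88. There were 8 members with a higher mean of log2(FPKM + 1) in model samples and 2, Notch2 and Hes1, with a lower one, although Notch2 was also higher when the values were rescaled to TPM, which gives each library the same total, or summed by length. The median log2 fold change of the members was 0.11, and that of all genes tested was -0.01. Model 3 was the sample with the most Myh6 and Muc5b RNA. Without model 3, 0 of 10 members passed the threshold or an unadjusted p of at most 0.05 with limma. The log2 fold change was then 0.08 for Notch1, 0.12 for Notch3, 0.12 for Notch4, 0.35 for Dll1, 0.25 for Dll4 and -8.97e-05 for Hes1.

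**Figure D1:**
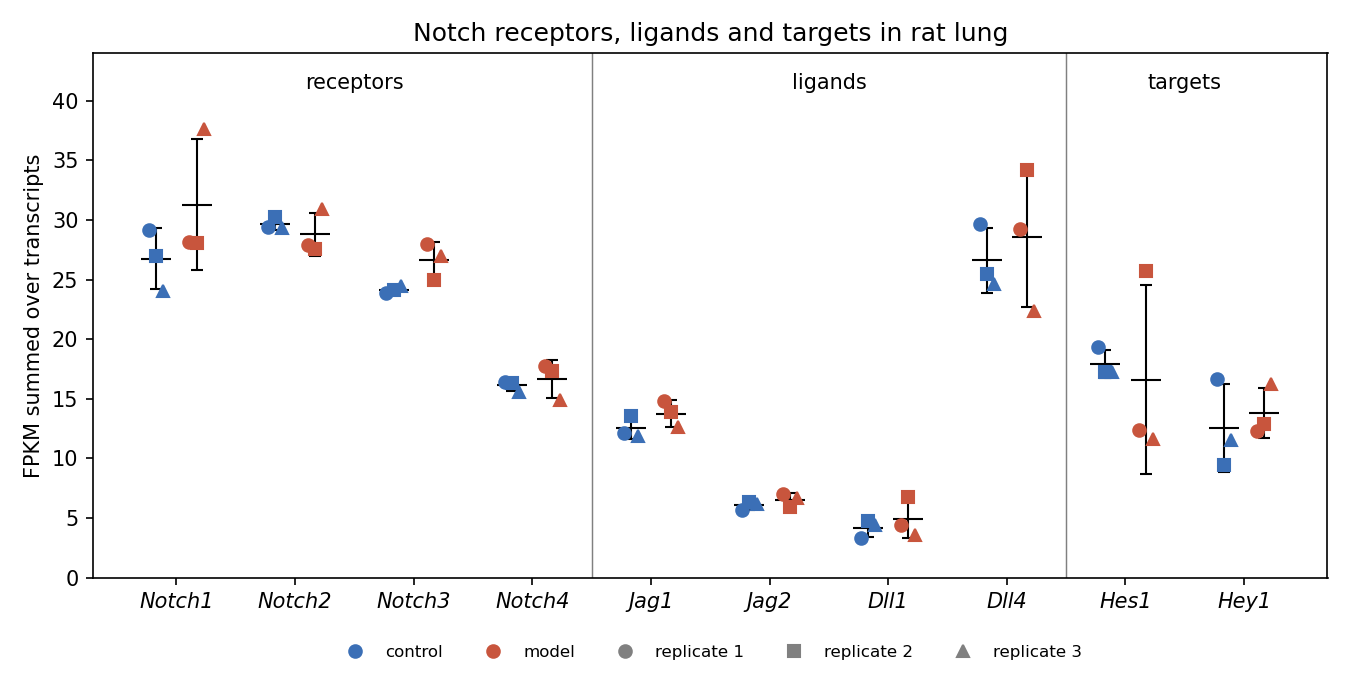
FPKM summed over the transcripts of each Notch gene, in 3 control samples (blue) and 3 PF model samples (red), with the symbol giving the replicate number, the bar the mean and the whiskers 1 SD. Control and model samples overlapped for 9 of the 10 genes, and Notch3 was the exception, with all model samples above the control samples.

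Among the receptors, Notch1 and Notch2 were the most abundant and Notch4 the least. Notch1, which is widely expressed, was at 29.1, 27.0 and 24.1 FPKM in control and 28.2, 28.1 and 37.6 FPKM in model samples. Its model samples spanned the upper part of the control range, and model 3 alone lay above it. The log2 fold change of Notch1 was 0.21 (SE 0.137, 95% interval -0.12 to 0.54, n = 3 per group). By reads rather than FPKM, model 3 was closer to the rest, with 461 estimated reads of Notch1 per 1000000 reads against 368 to 436 in the other samples.

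Notch2, a receptor found in many epithelial and stromal cells, had the steadiest level. It was at 29.4, 30.3 and 29.3 FPKM in control and 27.9, 27.6 and 30.9 FPKM in model samples, so model 1 and model 2 lay below all controls and model 3 above. Its log2 fold change was -0.04 (SE 0.0729, 95% interval -0.22 to 0.13). The coefficient of variation over the 6 samples was 4.42%, the smallest of the members, whose median was 12.1% against 14.5% for the 14312 genes with a mean FPKM of at least 1.

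Notch3, the receptor known for vascular smooth muscle and pericytes, was at 23.9, 24.1 and 24.5 FPKM in control samples. In the model samples it was at 27.95, 25.0 and 27.0 FPKM. All model samples lay above all control samples, which held for this member only, and 10.7% of all genes had groups that did not overlap, 4.82% with the model higher. The log2 fold change was 0.14 (SE 0.0715, 95% interval -0.04 to 0.31), and the adjusted p from limma was 0.933. In estimated reads per 1000000 reads the groups overlapped, with 203, 198 and 200 in control and 231, 202 and 243 in model samples. Over 8 markers of smooth muscle and pericytes, none had an unadjusted p of at most 0.05 with limma, and their summed FPKM was 154 to 193 in control and 145 to 221 in model samples, with the highest sum in model 3. Their part in the Notch3 level was not tested.

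Notch4, the receptor known from endothelial cells, was at 16.4, 16.3 and 15.6 FPKM in control and 17.7, 17.4 and 14.9 FPKM in model samples. Model 1 and model 2 were above the controls and model 3 below, and the log2 fold change was 0.04 (SE 0.0901, 95% interval -0.18 to 0.26). The assembly ran past the end of Notch4, so that 2 of its transcripts ended at base 4357107 of chromosome 20, beyond the annotated end at 4353785.

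Of the ligands, Dll4 was the most abundant, at 29.7, 25.5 and 24.6 FPKM in control and 29.3, 34.2 and 22.4 FPKM in model samples. Dll4 is the Delta-like ligand of arterial and sprouting endothelial cells. Its highest and its lowest value were both in the model group, and the log2 fold change was 0.09 (SE 0.161, 95% interval -0.30 to 0.47). Dll4 and Notch4 were both lowest in model 3. The 6 of 8 endothelial markers found in the table had none at an unadjusted p of at most 0.05 with limma. Their summed FPKM was 340 to 473 in control and 386 to 438 in model samples, and the 5 arterial markers summed to 73.9 to 89.6 in control and 64.8 to 86.8 in model samples. Their part in the Dll4 and Notch4 levels was not tested.

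Jag1, a Jagged ligand of vessel walls and airway cells, was at 12.1, 13.6 and 11.9 FPKM in control and 14.8, 13.9 and 12.6 FPKM in model samples. Model 1 and model 2 were above all controls, and model 3 was within their range. The log2 fold change was 0.13 (SE 0.0955, 95% interval -0.10 to 0.36). Jag2, the other Jagged ligand, was at 5.68, 6.35 and 6.15 FPKM in control and 7.00, 5.95 and 6.65 FPKM in model samples, with overlapping groups. It had a log2 fold change of 0.09 (SE 0.103). Dll1, a Delta-like ligand, was the least abundant member, at 3.35, 4.73 and 4.39 FPKM in control and 4.45, 6.80 and 3.61 FPKM in model samples. Model 2 alone lay above the controls, and the log2 fold change of Dll1 was 0.18 (SE 0.223).

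The targets varied more between rats than the receptors did, with coefficients of variation of 29.6% for Hes1 and 21.2% for Hey1 against at most 15.7% for a receptor. Hes1, a repressor that Notch induces directly, was at 19.3, 17.2 and 17.3 FPKM in control and 12.4, 25.7 and 11.7 FPKM in model samples. Model 1 and model 3 lay below all controls and model 2 above them, so the mean ± SD was 17.9 ± 1.18 FPKM in control and 16.6 ± 7.91 FPKM in model samples (n = 3 each). The log2 fold change was -0.19 (SE 0.283, 95% interval -0.88 to 0.49). Without model 1 it was -0.04 and without model 3 it was -8.97e-05. Without model 2 it was -0.54, at an unadjusted p of 0.00189 in the limma fit across all genes, adjusted p 0.744, the only member value at an unadjusted p of at most 0.05 when any 1 sample was left out. Hey1, a related repressor known from arteries and smooth muscle, was at 16.6, 9.43 and 11.5 FPKM in control and 12.3, 12.9 and 16.3 FPKM in model samples. The control range of Hey1 enclosed all model samples, and its log2 fold change was 0.16 (SE 0.209).

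**Figure D2:**
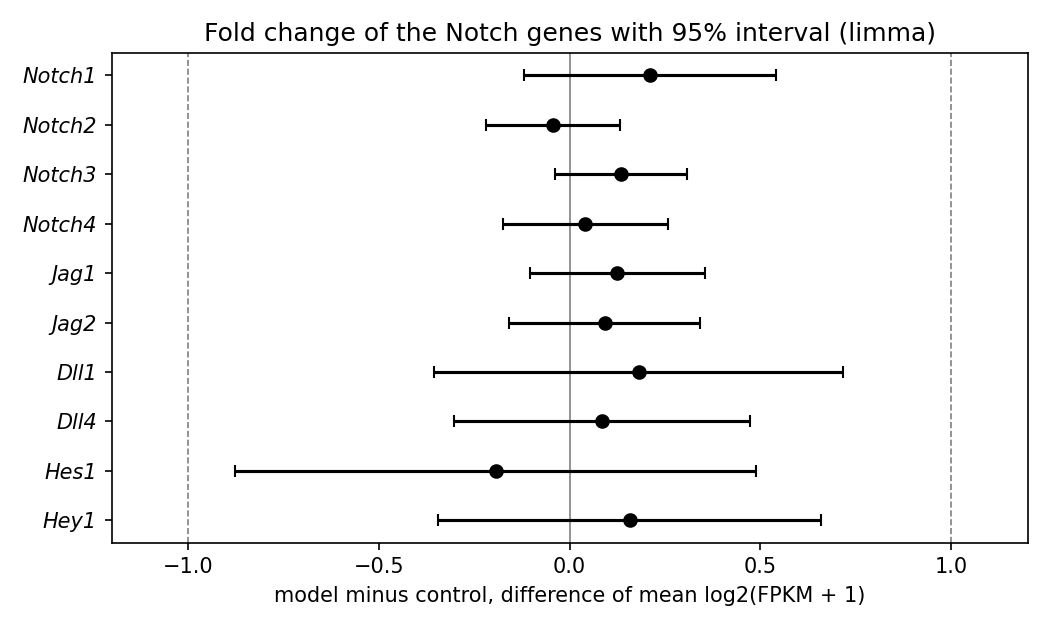
Log2 fold change of each Notch gene, as the model minus control difference of mean log2(FPKM + 1), with its 95% interval from limma. All 10 intervals cross 0 and lie between the dashed lines at -1 and 1, and the widest, that of Hes1, runs from -0.88 to 0.49.

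In FPKM, the standard deviation was larger in model than in control samples for 9 of the 10 members, Hey1 being the exception. It was larger in model samples for 53.9% of the 14312 genes with a mean FPKM of at least 1. In estimated reads per 1000000 reads, Notch1 was also an exception, with an SD of 34.5 in control and 20.3 in model samples. The share of all genes was not tested on that scale. Depth behind these values differed widely, from 14572 to 17950 estimated reads per sample for Notch1 to 435 to 810 for Hey1 and 465 to 716 for Dll1. Ordered by mean level per length, the members ran from Notch2 (29.2 FPKM) and Notch1 (29.0) through Dll4 (27.6), Notch3 (25.4), Hes1 (17.3), Notch4 (16.4), Hey1 (13.2) and Jag1 (13.2) to Jag2 (6.30) and Dll1 (4.56). The ranges of neighbours in this order overlapped everywhere except between Jag1 and Jag2, where Jag1 was higher in 6 of 6 samples. Part of each sum came from transcripts of other kinds. Transcripts inside an intron or on the opposite strand (classes i and x) gave 31.9% of the Dll1 sum, 16.6% of Jag1 and 13.6% of Notch1, and at most 8.05% for each of the others.

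For Notch1, Notch3 and Hes1, the assigned FPKM shifted from one transcript to another between samples, which is called an exchange below. The shares within the other members had smaller ranges. The transcripts of a gene overlap, and how their shared reads were divided was not tested, so an exchange describes the assigned values only. Of the 55 transcripts, 11 matched an annotated transcript (class =), 36 shared a splice junction with one (class j), 5 lay in an intron (class i), 2 overlapped exons otherwise (class o) and 1 lay on the opposite strand (class x). A filter that asked for FPKM over 0 in 3 or more of the samples left 49 for the test. Of these, 1 passed the threshold, lower in model samples (background 2.98% of 64867 transcripts, 1.76% lower), 2 had an unadjusted p of at most 0.05 (background 4.53%), 1 had groups that did not overlap (background 10.4%, 4.12% with the model higher) and 0 had an adjusted p below 0.05 with limma (background 0.0277%).

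For Notch1, the annotated transcript ENSRNOT00000026212, with 34 exons on the minus strand of chromosome 3 (3905453 to 3951025), was at 4.65, 4.84 and 3.10 FPKM in control and 5.20, 3.94 and 28.1 FPKM in model samples. The assembled transcript MSTRG.22362.3, with 28 exons and 13874 rather than 9526 bases, was at 12.6, 12.6 and 11.9 FPKM in control and 13.3, 12.6 and 1.82 FPKM in model samples. The exchange was in model 3 only, where the annotated transcript made up 74.8% of the gene sum against 12.9% to 18.4% in the other 5 samples. FPKM is per length and the forms differ in length, and the part of the exchange in the Notch1 sum of model 3 was not tested.

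Notch3 showed an exchange in the same sample, in the other direction. Its annotated transcript ENSRNOT00000037456, with 33 exons on the minus strand of chromosome 7 (14138495 to 14189688), was at 20.7, 19.6 and 19.0 FPKM in control and 22.2, 19.7 and 2.01 FPKM in model samples. MSTRG.32038.3, a class j transcript of 32 exons, was at 0, 2.21 and 3.11 FPKM in control and 3.54, 2.63 and 21.1 FPKM in model samples. In model 3 the annotated form made up 7.45% of the sum against 77.7% to 86.6% elsewhere. The largest range of a transcript's share over the 6 samples was 79.2 percentage points for Notch3 and 61.9 for Notch1, at the 92.6 and 84.5 percentiles of 10701 genes, whose median was 27.4 points. It was 51.9 points for Hes1 (78.3 percentile), 34.4 for Notch4 (60.5 percentile) and between 12.3 and 26.7 for Notch2, Jag1, Dll1, Dll4 and Hey1.

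Hes1, on the minus strand of chromosome 11 (74312806 to 74315248), showed an exchange in model 1 and model 3. Its annotated transcript ENSRNOT00000002346, with 4 exons and 1444 bases, was at 7.88, 6.33 and 7.51 FPKM in control and 1.02, 9.82 and 0.625 FPKM in model samples. MSTRG.8033.6, which has 3 exons and shares the 5′ end at base 74315248 while its 3′ end is at base 74312917, was listed at 0 in all control samples and in model 2, and was at 6.44 FPKM in model 1 and 5.75 FPKM in model 3. MSTRG.8033.1, with 2 exons, was at 2.73, 1.89 and 3.52 FPKM in control and 0.0328, 3.73 and 0.0117 FPKM in model samples, low in the same model samples as the annotated transcript. MSTRG.8033.6 made up 51.9% and 49.3% of the Hes1 sum in model 1 and model 3, and with values above 0 in only 2 samples it was not tested.

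The member transcript that passed the threshold was MSTRG.8033.3 of Hes1, with 3 exons and 1588 bases. It was at 4.13, 7.13 and 4.25 FPKM in control and 0.505, 4.42 and 0.229 FPKM in model samples, so model 2 lay within the control range and the other model samples far below. The transcript fell by 1.48 on the log2 scale (SE 0.598, unadjusted p 0.0496 in the limma fit across all transcripts, adjusted p 0.945). The call was lost when any sample other than model 2 was left out, with unadjusted p-values from limma of up to 0.139. Its share of the Hes1 sum was 21.4%, 41.4% and 24.6% in control and 4.08%, 17.2% and 1.97% in model samples, without overlap. The exact permutation test gave the smallest p that 3 against 3 samples allow, 0.1, and among the 29 transcripts that held at least 10% of their gene or passed the threshold it was the only such share, against a background of 9.80%. MSTRG.8033.4 of Hes1 was at 1.85, 1.12 and 1.45 FPKM in control and 2.62, 2.03 and 3.75 FPKM in model samples, all model samples above all controls. It had a log2 fold change of 0.61 with an adjusted p of 0.945 from limma.

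**Figure D3:**
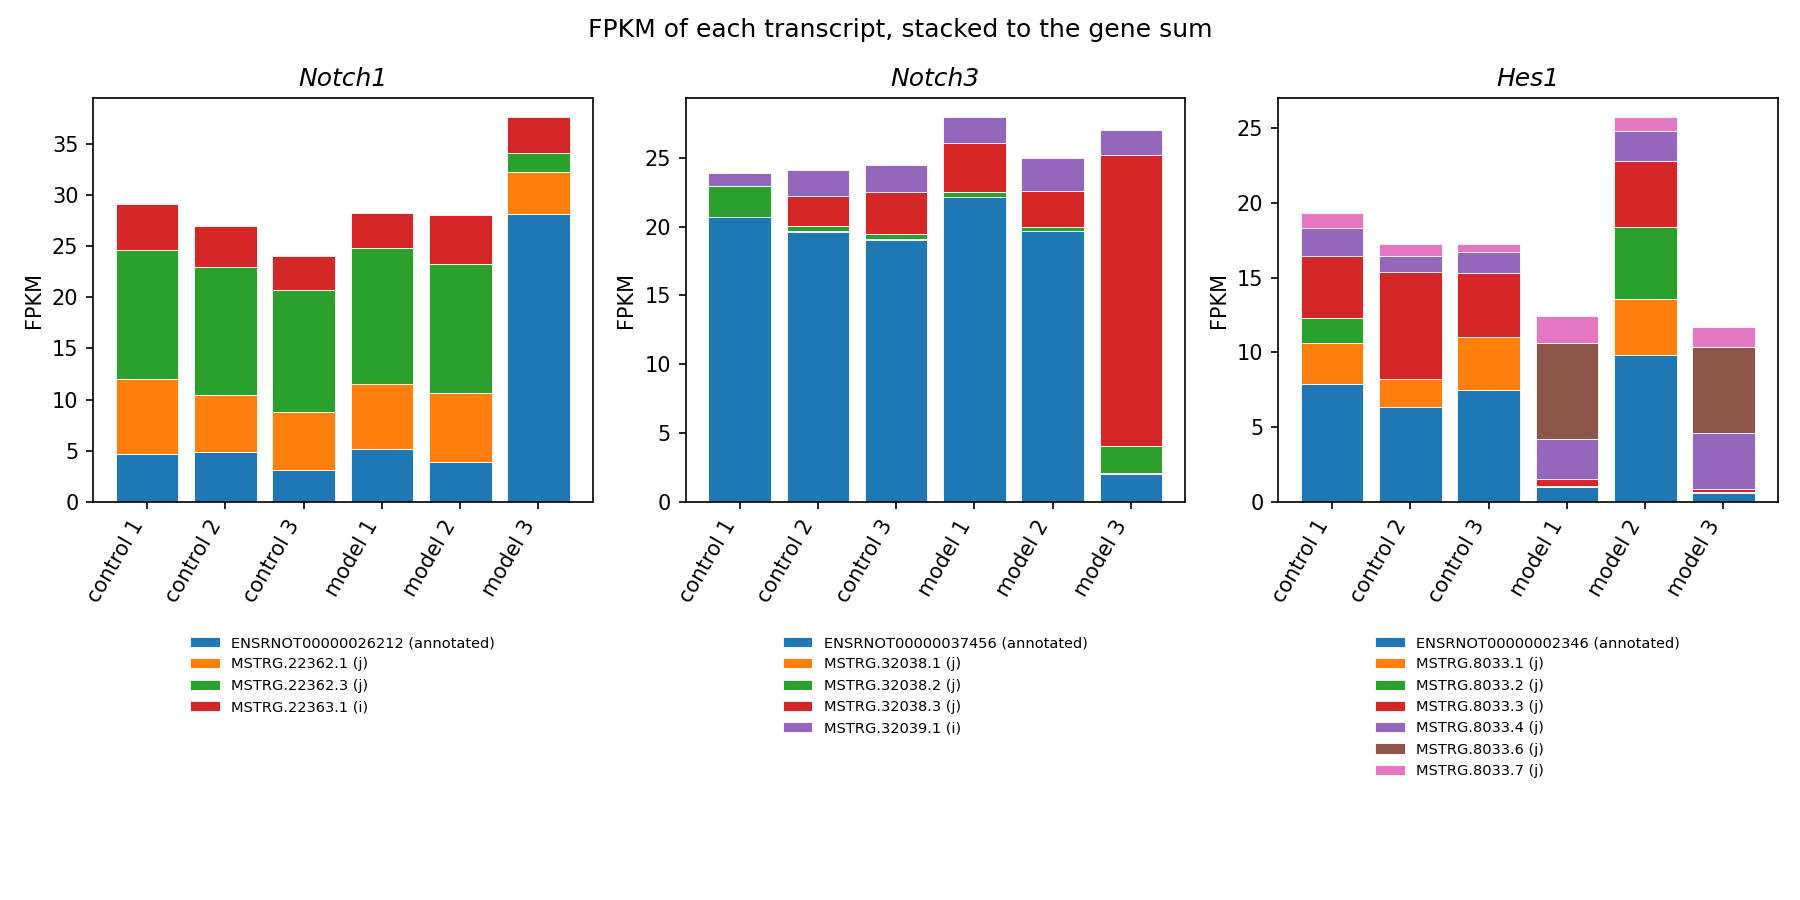
FPKM of each transcript of Notch1, Notch3 and Hes1, stacked to the gene sum for each of the 6 samples, with the class code in brackets. The annotated transcript (blue) gives 74.8% of Notch1 and 7.45% of Notch3 in model 3, and MSTRG.8033.6 (brown) appears for Hes1 in model 1 and model 3 only.

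The other members kept the same leading transcript in all 6 samples. It was the annotated one for Notch2 (ENSRNOT00000025718, 40.8% to 66.5% of the sum), Notch4 (ENSRNOT00000000513, 35.9% to 69.2%), Jag1 (ENSRNOT00000010638, 30.2% to 42.5%), Dll1 (ENSRNOT00000080429, 57.4% to 77.1%), Dll4 (ENSRNOT00000018970, 38.1% to 64.8%) and Hey1 (ENSRNOT00000015537, 36.7% to 51.2%). Jag2 had only 1 transcript, ENSRNOT00000019213. Other transcripts with at least 10% of a sum were MSTRG.22362.1 (20.6%) of Notch1, MSTRG.20411.3 of Notch2 (18.6%) and MSTRG.21331.7 of Notch4 (22.8%). The Notch1 sum also held MSTRG.22363.1 (13.6%), an intronic transcript of 1 exon on the plus strand, opposite to Notch1. For Jag1 the other transcripts were MSTRG.24068.1 (22.6%), the intronic MSTRG.24069.1 (16.6%), MSTRG.24068.2 (13.1%) and MSTRG.24068.4 (12.3%), and for Dll1 the intronic MSTRG.849.1 (31.9%). For Dll4 they were MSTRG.23678.13 (15.4%) and MSTRG.23678.9 (10.7%), and for Hey1 MSTRG.19229.1 (26.9%) and MSTRG.19229.2 (20.4%). None of these 13 transcripts had an unadjusted p of at most 0.05 with limma. With annotated transcripts alone, the log2 fold change was 0.91 for Notch1, -0.88 for Notch3, -0.35 for Notch4 and -1.32 for Hes1, and 0 of 10 members passed the threshold or an unadjusted p of at most 0.05 with limma. How the reads shared by overlapping transcripts were divided between them was not tested.

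The study takes genes within 100 kb of a long non-coding RNA as its possible cis targets, so intergenic (class u), intronic and opposite strand transcripts within 100 kb of each member were examined. The study's own long non-coding RNAs also included classes j and o and were filtered by predicted coding potential. Neither was done here, so the set examined is not the study's set. The examined transcripts numbered 33, 12 of class u, 18 of class i and 3 of class x, and none lay near Notch4 or Hes1. They include the 5 class i transcripts and the 1 class x transcript that carry a member's name. Those are also part of the gene sums above, so the 33 are not separate from the members. Distances were taken from the span of all transcripts of a name, which for Hey1 was 301 kb because of the class o transcript MSTRG.19222.1, against 2.41 kb annotated. From the annotated spans there were 28, since 5 near Hey1 dropped out, and 0 of the 28 passed the threshold with limma. With limma 0 of 33 passed the threshold (background 2.79% of 20738 such transcripts) and 0 had an unadjusted p of at most 0.05 (background 4.46%). In 1 of the 33 the groups did not overlap (background 11.1%, 7.81% with the model lower). This was MSTRG.23692.1, within Ino80 and 74.5 kb from Dll4, at 2.02, 2.16 and 2.46 FPKM in control and 1.82, 1.96 and 1.44 FPKM in model samples. The median log2 fold change of the 33 was -0.05, and that of all 20738 such transcripts was -0.06.

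The most abundant neighbour was MSTRG.22376.1, opposite to Agpat2 and 93.9 kb from Notch1 on chromosome 3 (4044913 to 4047274). It was at 16.9, 24.1 and 22.4 FPKM in control and 26.2, 28.01 and 5.64 FPKM in model samples, with the lowest value in model 3. MSTRG.22374.1, opposite to Egfl7, was likewise lowest in model 3, where it was listed at 0, while the other samples lay between 14.6 and 22.6 FPKM. The most abundant neighbours of the other loci were much weaker, with mean FPKM of 2.35 for MSTRG.20413.1 inside Notch2, 2.32 for MSTRG.32037.1 near Notch3, 2.18 for MSTRG.24069.1 inside Jag1 and 3.80 for MSTRG.31584.1 near Jag2. Near Dll1 it was MSTRG.853.1 (1.88), near Dll4 MSTRG.23677.1 (2.30) and beside Hey1 MSTRG.19230.1 (2.99), and their groups overlapped. The library kit named in the labels marks the strand, but whether counting used it is not given in the sources used here, so reads of opposite transcripts may not be told apart.

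Circular RNAs of the members were at the limit of detection. Of 5216 circRNAs, 4 came from members, all from Notch2, the receptor with the longest annotated locus, and each rested on 1 back-splice read in 1 sample. Of these, 3 were in control samples (ciRNA119, ciRNA198 and circRNA2638) and 1 in model 3 (circRNA4624). The libraries held between 2037 and 2964 back-splice reads each, and 226 circRNAs had the 10 reads over all samples needed for the test, none of them from a member, so no difference was detectable at this depth. Of 41 circRNAs of the other pathway genes only circRNA471 of the histone deacetylase Hdac2 had 10 reads, with 4, 3 and 5 in control and 3, 1 and 6 in model samples (adjusted p 0.990 by the quasi-likelihood test of edgeR).

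The rest of the pathway was read through 57 names of other ligands, targets, nuclear effectors, corepressors, proteases, glycosyltransferases and ubiquitination or endocytosis factors. Of these 53 were in the table and 51 were tested. With limma 0 of 51 passed the threshold and 0 had an adjusted p below 0.05, while 4 (7.84%) had an unadjusted p of at most 0.05 against the background of 4.91%. The groups did not overlap for 6 (11.8%), 3 higher and 3 lower in model samples, against the background of 10.7%, with 4.82% higher and 5.87% lower. By direction, 27 were higher and 24 lower in model samples, and the median log2 fold change was 0.02.

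Of the 7 nuclear effectors tested, 3 were higher, 4 lower and 1 had an unadjusted p of at most 0.05. It was Rbpj, the DNA-binding protein of the pathway, at 13.4, 13.6 and 14.5 FPKM in control and 11.1, 12.3 and 12.1 FPKM in model samples. All model samples of Rbpj were below all controls, with a log2 fold change of -0.21 (SE 0.0806) and an adjusted p of 0.933 from limma. Rbpj was above an unadjusted p of 0.05 when any 1 of the 6 samples was left out, with p-values from limma of up to 0.129, and it was at or below it in 5 of 17 alternatives. The coactivator Maml2 was the most abundant effector, at 77.2 ± 10.1 FPKM in control and 78.4 ± 6.28 FPKM in model samples (SD, n = 3 each).

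Of 8 corepressors, 5 were lower and 3 higher. Cir1, an RBPJ-interacting corepressor, was at 3.98, 3.82 and 3.93 FPKM in control and 3.39, 3.03 and 2.67 FPKM in model samples, again without overlap. Its log2 fold change was -0.29 (SE 0.120, adjusted p 0.933 from limma), and it was at an unadjusted p of at most 0.05 in 7 of 17 alternatives, 1 of the 6 with a sample left out. Ncor1, the most abundant, was at 38.9 ± 3.02 FPKM in control and 35.6 ± 1.71 FPKM in model samples.

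The 13 ubiquitination and endocytosis factors held the other 2 genes, in opposite directions. Numbl, a Numb-like endocytic adaptor, was at 3.90, 3.85 and 3.49 FPKM in control and 5.08, 4.73 and 5.51 FPKM in model samples, all model samples above all controls. Its log2 fold change of 0.36 (SE 0.111, adjusted p 0.933 from limma) had the smallest unadjusted p of the pathway, 0.0154 in the limma fit, at rank 263 of all genes, and was at an unadjusted p of at most 0.05 in 15 of 17 alternatives. Mib1, the ubiquitin ligase needed for ligand activity, was at 29.6, 26.4 and 29.9 FPKM in control and 18.5, 27.0 and 16.9 FPKM in model samples. Model 1 and model 3 lay below all controls, as they did for Hes1. Model 2 was within the control range, whereas for Hes1 it lay above. The log2 fold change of Mib1 was -0.47 (SE 0.174, adjusted p 0.933 from limma). Mib1 was at an unadjusted p of at most 0.05 in 10 of 17 alternatives, 2 of the 6 with a sample left out. Numb, the most abundant of the group, was at 47.3 ± 5.14 FPKM in control and 51.8 ± 6.90 FPKM in model samples.

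None of the 9 receptor cleavage genes had an unadjusted p of at most 0.05 with limma. Furin, the protease that processes Notch in the Golgi, had the smallest p of these, at 0.0641, 5.13 and 2.96 FPKM in control and 6.49, 5.32 and 8.87 FPKM in model samples. The groups of Furin did not overlap, and control 1 was far below the rest. Its log2 fold change was 1.39 (SE 0.625, adjusted p 0.933 from limma). The ADAM protease Adam10 was lower without overlap, at 21.8 ± 0.871 FPKM in control and 20.1 ± 0.916 FPKM in model samples. The gamma-secretase subunit Psenen, the most abundant, was at 29.9 ± 1.22 FPKM in control and 31.3 ± 8.22 FPKM in model samples.

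The other targets, which were Hes and Hey family genes and Nrarp, also had no gene at an unadjusted p of at most 0.05 with limma, with 4 higher and 3 lower of 7. Heyl, a target known from smooth muscle and the nearest to it, was at 4.54, 4.23 and 5.91 FPKM in control and 6.56, 5.76 and 6.32 FPKM in model samples, overlapping through control 3. Nrarp, a feedback inhibitor and the most abundant, was at 10.9 ± 0.685 FPKM in control and 10.1 ± 1.35 FPKM in model samples. Hes5 was at most 0.250 FPKM in any sample, and at this very low level all model samples lay above all controls. Among 5 glycosylation genes, with 4 higher and 1 lower, the fringe Mfng was at 12.2 ± 1.005 FPKM in control and 12.4 ± 1.87 FPKM in model samples, and Rfng at 4.93 ± 0.976 and 5.58 ± 0.169 FPKM. Of the other ligands, Dlk1 was at 2.46 ± 0.555 FPKM in control and 2.73 ± 1.02 FPKM in model samples, and Dner was at most 0.187 FPKM.

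**Figure D4:**
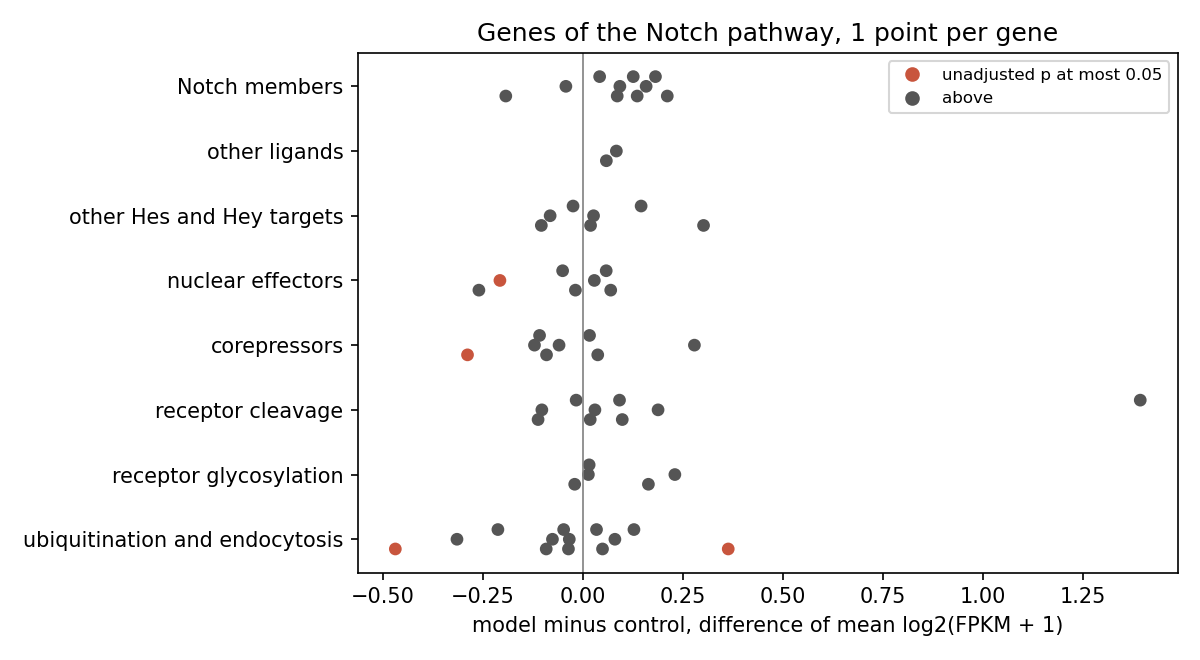
Log2 fold change of the 10 Notch members and of 51 other pathway genes, model minus control, 1 point per gene, in rows by role, with genes at an unadjusted p of at most 0.05 in red. Red points are Rbpj (-0.21), Cir1 (-0.29), Mib1 (-0.47) and Numbl (0.36), and the point at 1.39 is Furin.

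Over the 6 samples, the genes whose FPKM followed a member most closely were found among 14319 genes by Pearson correlation, as a description only. For Notch2, the most abundant receptor, they were Adora2a (r = 0.987), Dnajc3 (0.987) and RGD1561796 (0.985). For Dll4 they included Pgap2 (0.983) and Irx2 (0.978), and for Hes1 they were Synm (0.991), RF00213 (0.984) and Flt3lg (0.975). Of the other members, Notch4 ranked highest for Dll4, at 111 (r = 0.867), Dll4 ranked highest for Hes1, at 637 (r = 0.692), and Notch1 ranked highest for Notch2, at 3264 (r = 0.448). The most opposed members were Notch4 (r = -0.874) and Dll4 (-0.865) to Notch2, and Jag2 (-0.824) to Hes1. The 6 points share the library and its scaling in each pair of genes.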

How the data were processed

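The data are from lung RNA of 3 control and 3 PF model rats, grouped by the condition in their labels. All 24 measurement columns were assigned to a sample, and 0 were left out. The authors deposited FPKM and per-base coverage, a signal not scaled for library size, for each transcript assembled with StringTie. The authors also deposited raw counts of back-splice reads per circRNA and SRPBM, a normalized signal not used here. The submitters' processing notes name HISAT2, StringTie and TopHat, whereas the study's methods name Bowtie2 and Tophat2, with Tophat-fusion and CIRCexplorer for circRNAs. The build and the use of strand are not given in the sources used here.

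FPKM were summed per gene name, and reads were estimated as coverage times length divided by 150 bases. Features over 0 FPKM in 3 or more of the 6 samples were compared with limma 3.58.1 (trend, two-sided) on log2(FPKM + 1) in R 4.3.3, with Benjamini-Hochberg adjustment over all features tested. Fold changes on this scale understate those of low genes. Shares were compared with an exact two-sided permutation test over 20 regroupings, and circRNAs with at least 10 reads with edgeR 4.0.16. With 3 rats per group, p-values rest on the spread between these animals. On simulated data for this comparison with 200 of 14310 genes changed by 2 log2 units, 99% met the threshold, with 109 false calls. At an adjusted p below 0.05 from limma, 93% were found, with 12 false calls. Changes as small as those of the members were not simulated, so these rates do not apply to them. Back-splice counts and estimated reads carry counting error, and reads were not counted as molecules.

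The members and lists were chosen with earlier results of these data known. The text names all 10 members, transcripts that held at least 10% of their gene or passed the threshold, the most abundant neighbour of each locus, circRNAs with at least 2 reads (none for a member, so the 4 with 1 read are named), and in each pathway list the genes called, with the smallest p or with the highest FPKM, and the 3 genes that correlate most with the most abundant receptor, ligand and target, of which 1 is not reported here. MSTRG.23692.1, MSTRG.22374.1, Hes5, Adam10, Mib1, Col3a1, Myh6, Muc5b, Sftpc and Cdh5 were named after their values were seen. Marker names Pecam1, Cldn5, Foxj1 and Marco, and pathway names Dlk2, Maml3, Ep300 and Kat2b, were not matched. Alternatives were other pseudocounts, filters, sums, scalings and fits, leaving out samples and a replicate block.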

Additional observations from a re-analysis of the deposited data

How the results depend on the processing

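Across 17 alternatives to each of the 10 member fold changes, 161 of 170 values kept their direction and their side of the threshold, and 9 reversed, none of them past it. Notch2 was at 0.042 with the sum weighted by length, 0.040 rescaled to TPM and 0.010 as TPM without small RNA names, where the TPM settings moved the median of all expressed genes from -0.01 to 0.07 and 0.04. With annotated transcripts alone Notch3 was at -0.88 and Notch4 at -0.35. Leaving out 1 sample, the lowest values were -0.0035 for Notch4 (without model 1), -0.032 for Dll1 and -0.049 for Dll4 (without model 2) and -0.012 for Hey1 (without control 2), and the highest were 0.12, 0.35, 0.25 and 0.37. The number of members at an unadjusted p of at most 0.05 was 0 to 1 when a sample was left out, Hes1 without model 2 being the 1.

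The number of pathway genes at an unadjusted p of at most 0.05, 4 in the report, was 1 with annotated transcripts only (Aph1b, none of the 4), 2 rescaled to TPM (Numbl and Ncstn), 2 as TPM without small RNA names, 2 with transcripts of classes = and j only (an alternative chosen after seeing the data) and 1 to 4 when a sample was left out. Without control 1, and likewise without model 3, the 1 gene was Numbl. Pathway genes past the threshold numbered 0 to 1, the 1 being Furin without control 2 (log2 fold change 1.92). Member transcripts past it numbered 0 with a pseudocount of 0.1, 0 with no filter on low values and 0 to 4 when a sample was left out, the 4 being Hes1 transcripts without model 2. Neighbouring transcripts past it numbered 0 to 1, MSTRG.24066.1 near Jag1 without control 1 and MSTRG.23681.1 near Dll4 without model 2. Transcripts with shares that did not overlap numbered 3 as shares of bases and 1 to 8 when a sample was left out. The cause of these moves was not tested.

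No pairing by replicate number is stated in the sources used here. The deviations of same-numbered samples correlated at 0.0667, 0.0275 and -0.0867, and not every sample correlated best with its own number. These values cannot show whether animals or batches were matched. With the replicate number as a block, 1 pathway gene had an unadjusted p of at most 0.05 and 2 member transcripts passed the threshold, MSTRG.8033.3 and MSTRG.32038.3 of Notch3, and 0 members did. For circRNAs of members, DESeq2, the block and leaving out samples were not run, since none had 10 reads, and with no filter on reads 0 of the 4 were called.

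The depth limits circRNAs and low transcripts. With 3 rats per group, the intervals given cover the spread between rats for the main sum only. With annotated transcripts alone, the fold changes of Notch1, Notch3, Notch4 and Hes1 lay outside them.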
